A study of Mus with 8 samples.

Results

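The 9 genes described here encode enzymes, a transporter and regulatory subunits with which the liver makes glucose and stores or breaks down glycogen: G6pc, Slc37a4, Pck1, Fbp1, Pygl, Ppp1r3b, Ppp1r3c, Gys2 and Gbe1. They were taken by gene symbol from a deposited table of 54532 genes, and all 9 were found once. Liver RNA was sequenced from mice in which dextran sulfate sodium (DSS), an oral irritant of the colonic lining, had been given at 2.5% and stopped on day 6 to produce colitis. The 4 DSSHA libraries (35, 45, 65 and 71) carry the treatment label alcohol, high-fat diet and DSS, and the 4 DSS libraries (15, 48, 49 and 50) carry the label DSS alone. Both groups had therefore received DSS, and diet and alcohol were given together, so that their parts cannot be told apart. The study's design text names a purified high-fat feed and a high-fat feed with alcohol as the interventions that followed DSS, but does not spell out what the DSS mice were fed or for how long either intervention ran. No strain, age or sex is given in the labels, and the labels do not state that each library came from a separate mouse, so the tests rest on the spread from library to library, which may be technical. Throughout, n counts libraries. No liver without DSS was analysed here.

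Hepatocytes keep blood glucose up between meals by a pair of routes that meet at glucose 6-phosphate. Gluconeogenesis builds it from lactate, amino acids and glycerol, with phosphoenolpyruvate carboxykinase and fructose 1,6-bisphosphatase at the committed steps, while glycogen phosphorylase releases it from stored glycogen by way of glucose 1-phosphate. In both cases glucose 6-phosphate must be carried into the endoplasmic reticulum and split there by glucose-6-phosphatase before free glucose can leave the cell. Storage runs the other way through glycogen synthase and the branching enzyme, under protein phosphatase 1, which targeting subunits bring to the glycogen particle.

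Total counts per library ran from 12502300 to 16967839, but mitochondrially encoded transcripts took 30.2 to 73.0% of them in DSSHA livers and 55.8 to 79.1% in DSS livers. Nuclear genes were left with 3453086 to 10947612 counts in DSSHA libraries and 2722757 to 6170482 in DSS libraries. Library DSSHA 35 stood apart, with only 784 genes detected at a count of 1 to 9, where each of the other 7 libraries had 4319 to 4987 such genes. All 9 genes passed the filter on low counts, with at least 21 counts in every library, and were tested together with the rest of the 11729 genes that passed. Hepatocyte markers were abundant, with Alb, the albumin gene, at 14781 to 23397 CPM (counts scaled to a common library total, with TMM factors) in DSSHA livers and 30192 to 50256 CPM in DSS livers. The groups did not overlap for Alb (log2 fold change -1.20, edgeR adjusted p = 0.115). Of 9 tested hepatocyte markers 0 passed edgeR's adjusted threshold and 2 had an unadjusted p under 0.05, and all 9 had negative log2 fold changes (median -0.48). Their summed level was 27387 to 34296 CPM in DSSHA livers and 46182 to 73502 CPM in DSS livers. Alb made up most of that sum, with means of 18457 CPM in DSSHA livers and 42304 CPM in DSS livers. The log2 fold changes of the other markers ran from -0.99 (Apob) to -0.14 (Cps1). The part of the summed level in the values of Pygl and Ppp1r3b was not tested. In bulk tissue, fewer hepatocytes and less RNA per hepatocyte cannot be told apart.

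In DSSHA livers the glycogen phosphorylase gene Pygl and the phosphatase targeting gene Ppp1r3b fell relative to DSS livers, by 2.15-fold and 4.03-fold. The other 7 genes did not pass the test, although G6pc, the catalytic subunit of glucose-6-phosphatase, averaged 2.94-fold lower without overlap between the groups. The highly expressed enzyme genes of the upper route, Pck1 and Fbp1, and the storage genes Gys2 and Gbe1 had values in DSSHA livers on both sides of the DSS range. Of the 9 genes 2 were lower and 0 higher (edgeR quasi-likelihood test, adjusted p under 0.05), where 1.26% of all 11729 genes passed, 0.674% as lower and 0.588% as higher. At an unadjusted p under 0.05 the count was 4 of 9, against 11.7% of all genes. The median log2 fold change of the 9 genes was -0.49, against -0.01 over all genes tested, and 7 of 9 values were negative. DESeq2 called 3 of the 9 genes, G6pc with Pygl and Ppp1r3b, where it called 3.11% of 14183 genes. The authors' deposited table gives an adjusted p under 0.05 to 3 of the 9, as to 2.09% of 20591 genes. Its log2 fold changes of the 9 genes match those of the DESeq2 fit here, with G6pc at -1.55839 and Ppp1r3b at -2.00851 in both. The deposited values come from the same libraries and are not evidence separate from that fit.

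**Figure D1:**
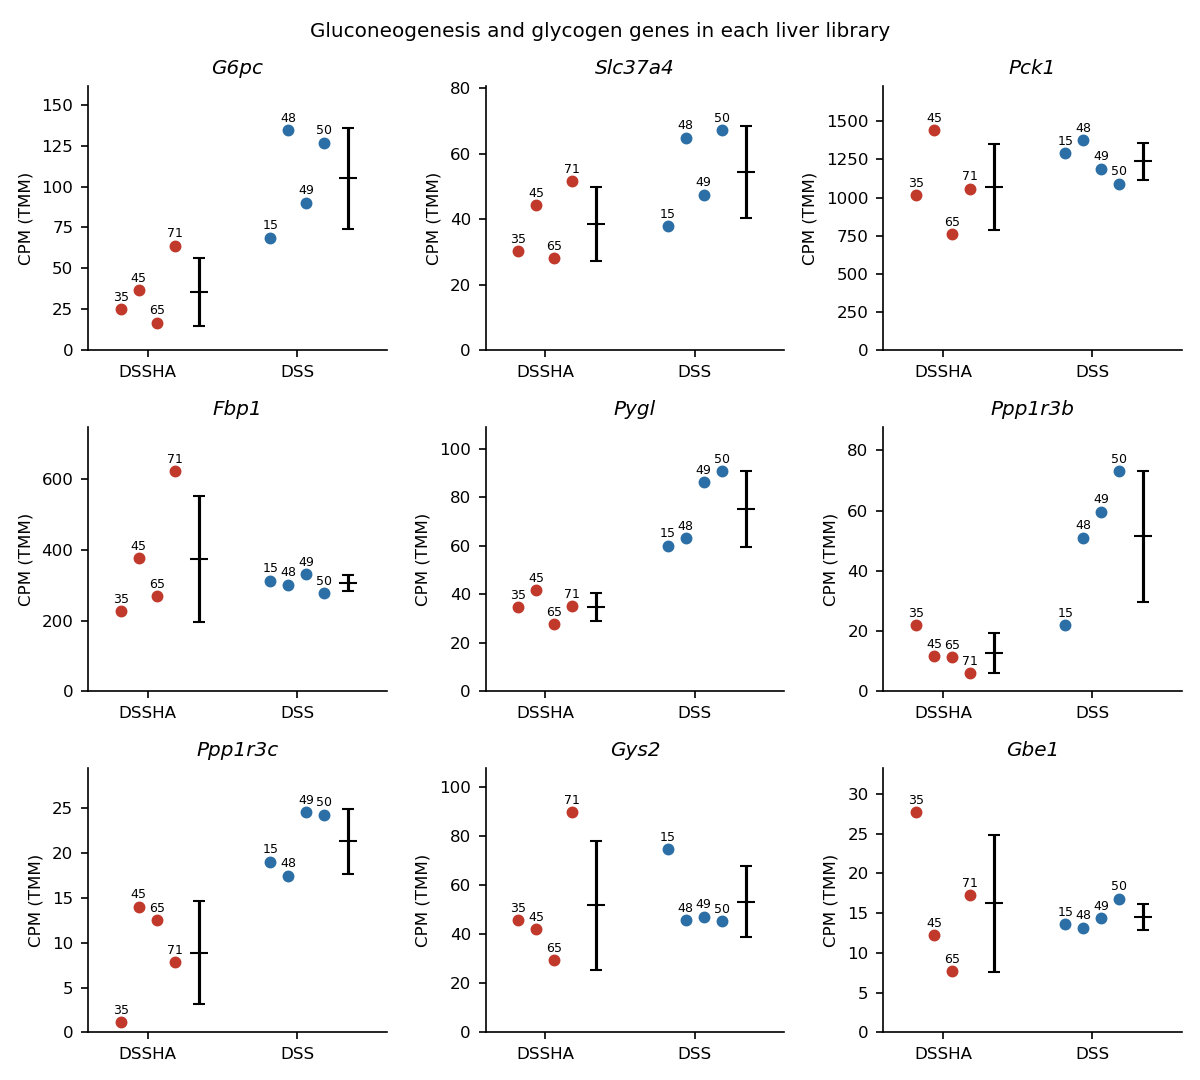
CPM (TMM-normalized, linear axis from 0) of each of the 9 genes in the 4 DSSHA libraries (red) and the 4 DSS libraries (blue). The library number is above each point and the mean ± SD is in black. For Pygl all DSSHA libraries sit at or below 41.8 CPM and all DSS libraries at or above 60.0 CPM.

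**Figure D2:**
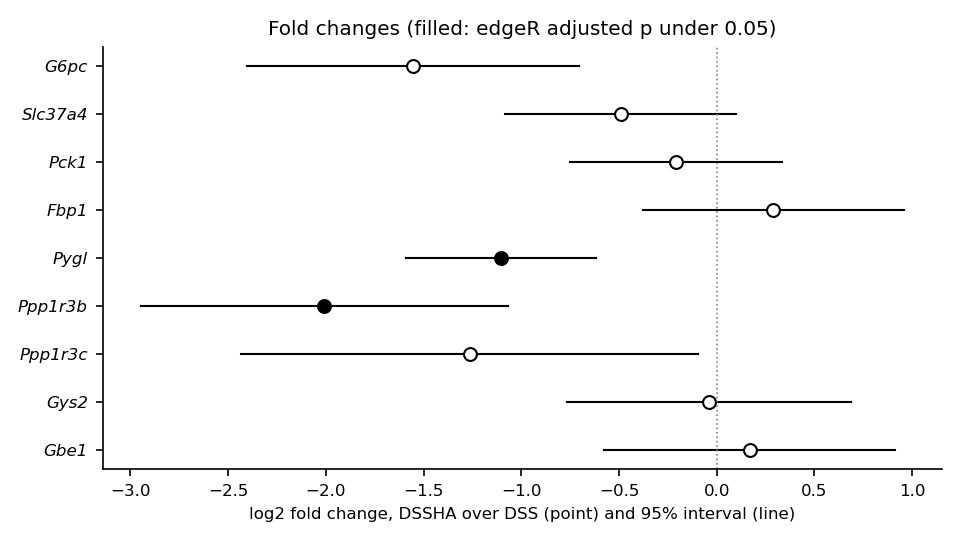
Log2 fold change of DSSHA over DSS for each of the 9 genes, with its 95% interval from the edgeR fit, not adjusted for the number of genes. Filled points (Pygl and Ppp1r3b) passed the adjusted threshold; the intervals of Slc37a4, Pck1, Fbp1, Gys2 and Gbe1 include 0.

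The last step of glucose release was examined through G6pc and Slc37a4. G6pc (ENSMUSG00000078650, chromosome 11, 101367561 to 101377903 on the plus strand, GRCm38) encodes the phosphatase that frees glucose in the endoplasmic reticulum. It had 25.1, 36.6, 16.9 and 63.9 CPM in DSSHA libraries 35, 45, 65 and 71, against 68.7, 134, 90.2 and 127 CPM in DSS libraries 15, 48, 49 and 50. Every DSSHA library was below every DSS library, with the narrowest gap between DSSHA 71 and DSS 15. The means were 35.6 ± 20.5 CPM in DSSHA livers and 105 ± 31.0 CPM in DSS livers (SD, n = 4 each), and the log2 fold change was -1.55 ± 0.39 (SE, 95% interval -2.40 to -0.70), which missed the threshold (edgeR adjusted p = 0.092). The call depended on the filter and on 1 library: G6pc passed with no filter on low counts (-1.54, edgeR adjusted p = 0.013) and without library DSSHA 71 (-2.00, 0.026). In the authors' deposited table it is listed at -1.56 with an adjusted p of 0.0041.

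Slc37a4 (ENSMUSG00000032114, chromosome 9, 44396852 to 44402968, plus strand) encodes the transporter that feeds glucose 6-phosphate to that phosphatase. It had 30.3, 44.3, 28.1 and 51.5 CPM in DSSHA libraries 35, 45, 65 and 71, against 37.9, 64.9, 47.4 and 67.2 CPM in DSS libraries 15, 48, 49 and 50. The groups overlapped, and the log2 fold change of -0.49 ± 0.27 (SE, 95% interval -1.08 to 0.10) did not pass (edgeR adjusted p = 0.537). The phosphatase and its transporter were also set against each other within each library, which removes any scaling between libraries. For this the authors' FPKM were used, which are counts scaled to gene length and to a library size other than the total count. The FPKM ratio of G6pc to Slc37a4 was 0.980, 0.978, 0.713 and 1.47 in DSSHA libraries 35, 45, 65 and 71. It was 2.15, 2.45, 2.25 and 2.23 in DSS libraries 15, 48, 49 and 50. The DSS libraries thus lay within a narrow band above all DSSHA libraries. The mean log2 ratio was 0.00 ± 0.43 in DSSHA livers and 1.18 ± 0.08 in DSS livers (SD, n = 4 each); as a ratio between chosen genes it was given no test.

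**Figure D3:**
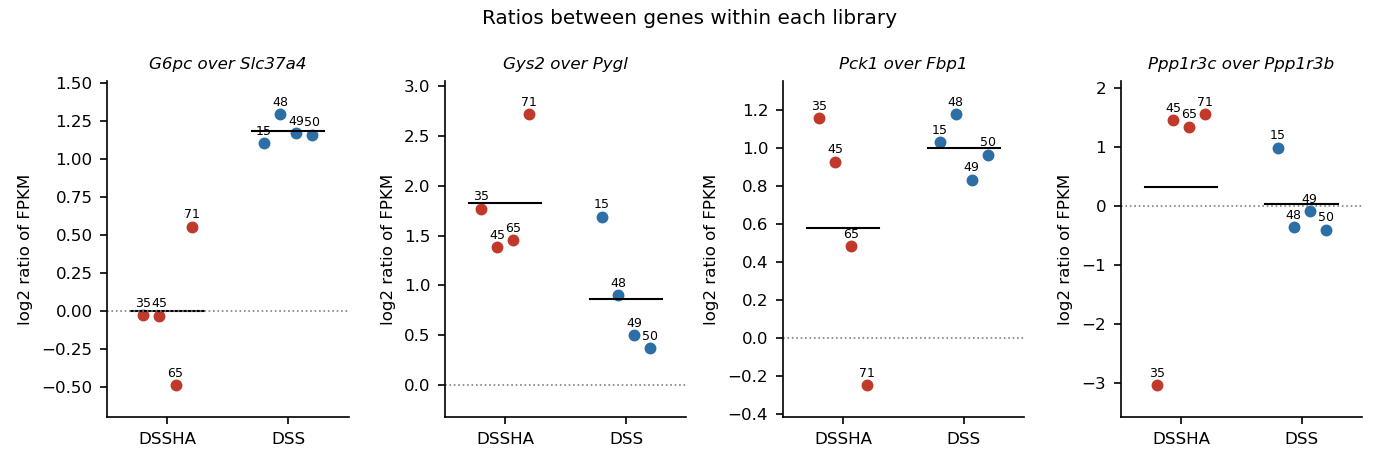
Log2 ratio of the FPKM values of 4 gene pairs within each library, DSSHA in red and DSS in blue, with library numbers and the group mean as a bar. The ratio of G6pc to Slc37a4 separates the groups, while the ranges of the other 3 ratios overlap.

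The committed enzymes of gluconeogenesis were abundant in both groups. Pck1 (ENSMUSG00000027513, chromosome 2, 173153048 to 173159273, plus strand) encodes the cytosolic phosphoenolpyruvate carboxykinase. It had 1018, 1443, 761 and 1058 CPM in DSSHA libraries 35, 45, 65 and 71, and 1290, 1376, 1191 and 1091 CPM in DSS libraries 15, 48, 49 and 50. The DSSHA values reached both above and below the DSS range, and the log2 fold change was -0.21 ± 0.25 (SE, 95% interval -0.75 to 0.33; edgeR adjusted p = 0.816).

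Fbp1 (ENSMUSG00000069805, chromosome 13, 62864753 to 62888282, minus strand) encodes the liver fructose 1,6-bisphosphatase. It had 227, 376, 270.4 and 624 CPM in DSSHA libraries 35, 45, 65 and 71, and 314, 302, 332 and 278 CPM in DSS libraries 15, 48, 49 and 50. Library DSSHA 71 was at the top, and the coefficient of variation was 47.5% among DSSHA libraries and 7.44% among DSS libraries. The log2 fold change of 0.29 ± 0.30 (SE, 95% interval -0.38 to 0.96) did not pass (edgeR adjusted p = 0.789) and was -0.07 without DSSHA 71. The FPKM ratio of Pck1 to Fbp1 was 2.23, 1.90, 1.40 and 0.842 in DSSHA libraries 35, 45, 65 and 71, against 2.04, 2.26, 1.78 and 1.95 in DSS libraries 15, 48, 49 and 50.

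Glycogen breakdown was represented by Pygl (ENSMUSG00000021069, chromosome 12, 70190811 to 70231488, minus strand), the liver form of glycogen phosphorylase, whose loss in humans causes a glycogen storage disease. It had 34.8, 41.8, 27.7 and 35.2 CPM in DSSHA libraries 35, 45, 65 and 71, against 60.0, 63.3, 86.4 and 90.9 CPM in DSS libraries 15, 48, 49 and 50. The groups did not overlap, and the lowest DSS library was above the highest DSSHA library by more than the SD within either group. The means were 34.9 ± 5.74 CPM in DSSHA livers and 75.2 ± 15.7 CPM in DSS livers (SD, n = 4 each), a log2 fold change of -1.10 ± 0.22 (SE, 95% interval -1.59 to -0.62; edgeR adjusted p = 0.034). The authors' deposited table lists -1.10 with an adjusted p of 0.0011. The size changed little when 1 library was left out (-1.21 to -1.01), but the call was lost without DSSHA 45, 65 or 71 (edgeR adjusted p = 0.069, 0.063 and 0.081) and without DSS 48, 49 or 50 (0.097, 0.137 and 0.133).

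The targeting subunits bring protein phosphatase 1 to glycogen, where it activates glycogen synthase and inactivates phosphorylase. Ppp1r3b (ENSMUSG00000046794, chromosome 8, 35375739 to 35388139, plus strand) encodes the subunit known as GL, the main one of liver. It had 21.9, 11.8, 11.3 and 6.11 CPM in DSSHA libraries 35, 45, 65 and 71, against 21.9, 51.1, 59.7 and 73.1 CPM in DSS libraries 15, 48, 49 and 50. DSSHA 35 and DSS 15 were level to 3 digits, so the groups touched, and the other libraries lay well apart. The means were 12.8 ± 6.60 CPM in DSSHA livers and 51.5 ± 21.7 CPM in DSS livers (SD, n = 4 each), and the log2 fold change was -2.01 ± 0.43 (SE, 95% interval -2.95 to -1.07; edgeR adjusted p = 0.049). The authors' deposited table lists -2.01 with an adjusted p of 0.00021. The edgeR value was close to the threshold: it was 0.0091 without DSSHA 35 (log2 fold change -2.41) and 0.020 without DSS 15 (-2.27), and the call was lost without DSSHA 45, 65 or 71 (0.163, 0.091 and 0.093) or DSS 48, 49 or 50 (0.140, 0.137 and 0.152).

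Ppp1r3c (ENSMUSG00000067279, chromosome 19, 36731737 to 36736653, minus strand) encodes a second targeting subunit, known as PTG, which is made in liver and other tissues. It had 1.18, 14.0, 12.5 and 7.86 CPM in DSSHA libraries 35, 45, 65 and 71, against 19.0, 17.5, 24.6 and 24.3 CPM in DSS libraries 15, 48, 49 and 50. The groups did not overlap, and DSSHA 35 was far below the rest with 21 counts. The log2 fold change of -1.26 ± 0.53 (SE, 95% interval -2.43 to -0.10) did not pass (edgeR adjusted p = 0.375), and it was -0.90 without DSSHA 35. The library that was lowest for Ppp1r3c was the highest DSSHA library for Ppp1r3b: the FPKM ratio of Ppp1r3c to Ppp1r3b was 0.123 in DSSHA 35 and 2.53 to 2.94 in the other 3 DSSHA libraries, against 0.759 to 1.98 in DSS libraries. In all, 4 of the 9 genes (G6pc, Pygl, Ppp1r3b and Ppp1r3c) were lower without overlap in CPM, Ppp1r3b by the margin given above, where 4.63% of all genes tested were. None of the 9 was higher without overlap, against 4.14% of all genes.

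The genes of glycogen synthase and of the branching enzyme showed no difference past the test. Gys2 (ENSMUSG00000030244, chromosome 6, 142422613 to 142473109, minus strand), the liver glycogen synthase, had 45.8, 42.0, 29.3 and 89.6 CPM in DSSHA libraries 35, 45, 65 and 71, and 74.6, 45.6, 47.1 and 45.3 CPM in DSS libraries 15, 48, 49 and 50. A single high library stood out in each group, DSSHA 71 and DSS 15. The log2 fold change was -0.04 ± 0.33 (SE, 95% interval -0.77 to 0.69; edgeR adjusted p = 0.979), and it was positive without DSSHA 35 (0.02), DSSHA 45 (0.05), DSSHA 65 (0.15) or DSS 15 (0.17).

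Gbe1 (ENSMUSG00000022707, chromosome 16, 70313949 to 70569716, plus strand), which adds the branches to glycogen, had 27.7, 12.2, 7.73 and 17.2 CPM in DSSHA libraries 35, 45, 65 and 71. In DSS libraries 15, 48, 49 and 50 it had 13.6, 13.2, 14.4 and 16.8 CPM. The DSS values fell inside the DSSHA range, and the log2 fold change of 0.17 ± 0.34 (SE, 95% interval -0.57 to 0.91; edgeR adjusted p = 0.907) was -0.21 without DSSHA 35. The FPKM ratio of synthase to phosphorylase, Gys2 to Pygl, was 3.41, 2.61, 2.74 and 6.60 in DSSHA libraries 35, 45, 65 and 71, against 3.23, 1.87, 1.41 and 1.29 in DSS libraries 15, 48, 49 and 50. DSS 15 lay within the DSSHA range for this ratio, and the other 3 DSS libraries lay below it.

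Levels were compared per gene length, as FPKM. In DSSHA livers the order of mean FPKM was Pck1 (305 ± 79.6), Fbp1 (215 ± 101), Gys2 (19.0 ± 9.54), G6pc (14.4 ± 8.22), Slc37a4 (13.2 ± 3.79), Pygl (4.95 ± 0.796), Ppp1r3c (3.21 ± 2.10), Gbe1 (2.96 ± 1.54) and Ppp1r3b (2.01 ± 1.03; SD, n = 4 each). In DSS livers it was Pck1 (353 ± 37.5), Fbp1 (176 ± 13.9), G6pc (42.5 ± 12.3), Gys2 (19.6 ± 5.49), Slc37a4 (18.6 ± 4.70), Pygl (10.7 ± 2.15), Ppp1r3b (8.08 ± 3.35), Ppp1r3c (7.68 ± 1.26) and Gbe1 (2.65 ± 0.278). Among DSS libraries the ranges of neighbours in this order were separate except between Gys2 and Slc37a4, between Pygl and Ppp1r3b, and between Ppp1r3b and Ppp1r3c. Among DSSHA libraries they were separate only between Fbp1 and Gys2 and between Slc37a4 and Pygl. The range of G6pc overlapped those of Gys2 and Slc37a4 in DSSHA livers and lay above both in DSS livers.

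The libraries of a group did not shift all 9 genes alike. DSSHA 65, with 73.0% mitochondrial counts the highest of its group, was the lowest DSSHA library for 6 of the 9 genes (G6pc, Slc37a4, Pck1, Pygl, Gys2 and Gbe1) and the highest for 0. DSSHA 71, with the lowest share (30.2%), was highest for 4 (G6pc, Slc37a4, Fbp1 and Gys2) and lowest for Ppp1r3b. In DSS livers the order of Pygl and of Ppp1r3b over libraries 15, 48, 49 and 50 was the order of their mitochondrial shares (55.8, 56.05, 69.9 and 79.1%), whereas Pck1 was lowest in DSS 50. When the mitochondrial share entered the fit as a covariate, the log2 fold change was -1.12 for Pygl (edgeR adjusted p = 0.215), -1.57 for Ppp1r3b (0.419) and -2.22 for G6pc (0.112). None of the 9 genes passed in that fit, which called 55 genes in all. With the mitochondrial genes left out before normalization, Pygl, Ppp1r3b and G6pc stood at -1.10, -2.01 and -1.55, and the first pair passed (edgeR adjusted p = 0.033 and 0.045).

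**Figure D4:**
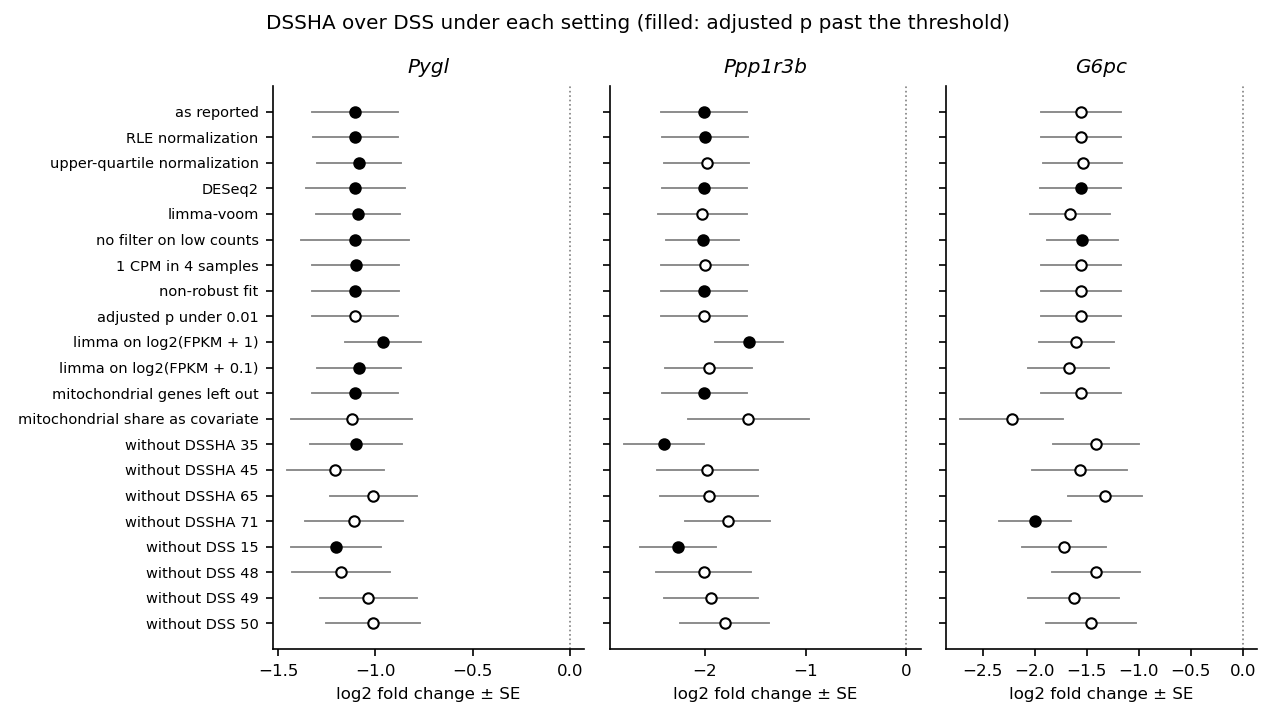
Log2 fold change ± SE of Pygl, Ppp1r3b and G6pc for DSSHA over DSS as reported and under 20 other settings, with filled points where the adjusted p passed the threshold of that setting. All plotted values are negative, and leaving out DSSHA 45, 65 or 71 or DSS 48, 49 or 50 ends the calls of Pygl and Ppp1r3b.

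The rest of both pathways was described from lists of textbook members. Of 21 tested genes of gluconeogenesis and its shuttles 0 passed in either direction (median log2 fold change -0.02), and of 25 tested glycogen genes 0 passed (median 0.13); at an unadjusted edgeR p under 0.05 the counts were 6 and 0, and DESeq2 called 3 and 0. Pcx, pyruvate carboxylase, had 132 ± 48.7 CPM in DSSHA livers and 120 ± 20.4 CPM in DSS livers (SD, n = 4 each). Ugp2, which makes the UDP-glucose used by glycogen synthase, had 69.8 ± 31.6 CPM in DSSHA livers and 79.6 ± 19.2 CPM in DSS livers. Gys1, the muscle form of glycogen synthase, was scarce, at 0 to 1.66 CPM in DSSHA livers and 0.839 to 2.68 CPM in DSS livers. Its log2 fold change was -0.77, and -0.36 without DSSHA 35, the library with few genes at low counts.

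Of 24 tested genes of glucose entry and glycolysis 0 passed (median -0.06), 5 had an unadjusted edgeR p under 0.05, and DESeq2 called 1. Pklr, the liver pyruvate kinase, which runs opposite to the Pck1 step and was singled out after its values were seen, had 10.9 ± 3.05 CPM in DSSHA livers and 24.1 ± 4.41 CPM in DSS livers (log2 fold change -1.14 ± 0.25, edgeR adjusted p = 0.060). Pklr passed with DESeq2 (adjusted p = 0.0087), with no filter (edgeR adjusted p = 0.016) and without DSSHA 35 (0.018). Slc2a2, the glucose transporter of the hepatocyte membrane, had 40.0 ± 23.4 CPM in DSSHA livers and 57.1 ± 21.5 CPM in DSS livers (edgeR adjusted p = 0.713).

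Genes of hormone signalling and transcriptional control of these pathways also showed no call: 0 of 38 passed (median -0.10), with 4 at an unadjusted edgeR p under 0.05 and 0 by DESeq2. Gcgr, the glucagon receptor, had 69.6, 216, 247 and 98.3 CPM in DSSHA libraries 35, 45, 65 and 71, and 98.6 to 164 CPM in DSS livers. Insr, the insulin receptor, had 24.0 ± 6.46 CPM in DSSHA livers and 27.7 ± 8.14 CPM in DSS livers, and Irs2, a docking protein of that receptor, 12.7 ± 3.99 CPM in DSSHA livers and 8.20 ± 5.29 CPM in DSS livers. Foxo1, a factor that insulin signalling keeps out of the nucleus and that drives G6pc and Pck1, had 10.5 ± 2.31 CPM in DSSHA livers and 16.1 ± 4.78 CPM in DSS livers (log2 fold change -0.60 ± 0.27, edgeR adjusted p = 0.407). Its coactivator gene Ppargc1a had 5.30 ± 2.28 CPM in DSSHA livers and 4.73 ± 1.11 CPM in DSS livers.

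Among 12 transcripts that follow fasting and feeding 2 were lower and 0 higher (median -0.32). At an unadjusted edgeR p under 0.05 the count was 3, against 11.7% of all genes, and DESeq2 called 3, against 3.11%. Pdk4, singled out after its values were seen, had 4.74 ± 2.72 CPM in DSSHA livers and 21.5 ± 16.9 CPM in DSS livers. Its groups overlapped, and it did not pass (log2 fold change -2.18 ± 0.62, edgeR adjusted p = 0.150). Igfbp2, an insulin-like growth factor binding protein, had 37.3, 113, 88.9 and 146 CPM in DSSHA libraries 35, 45, 65 and 71, against 372, 594, 549.5 and 511 CPM in DSS libraries 15, 48, 49 and 50. Its groups were far apart (log2 fold change -2.39 ± 0.38, edgeR adjusted p = 0.0096), and the call was lost with the mitochondrial covariate (-2.56, 0.076). Angptl4, a lipoprotein lipase inhibitor induced by fasting, had 94.0 ± 19.2 CPM in DSSHA livers and 206 ± 22.6 CPM in DSS livers (log2 fold change -1.13 ± 0.22, edgeR adjusted p = 0.027). That call was lost without DSSHA 65 or 71 or DSS 48, 49 or 50 (edgeR adjusted p = 0.057, 0.065, 0.128, 0.108 and 0.099) and with the mitochondrial covariate (0.158). Igfbp1, which insulin represses as it does G6pc and Pck1, had 60.0 to 241 CPM in DSSHA livers and 57.5 to 131 CPM in DSS livers (log2 fold change 0.46 ± 0.41, edgeR adjusted p = 0.754). Its sign rested on 1 library, since the log2 fold change was -0.12 without DSSHA 71, and it was -0.39 with the mitochondrial covariate.

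**Figure D5:**
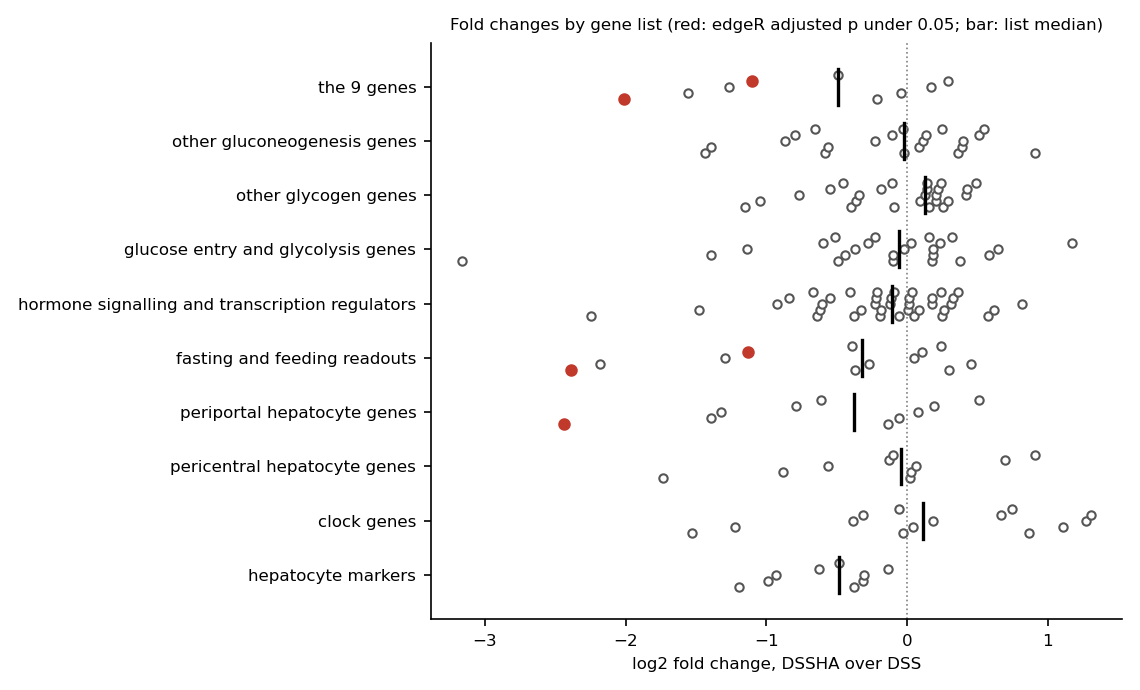
Log2 fold change of DSSHA over DSS for every tested gene of the 9 described and of 9 gene lists, one point per gene, with calls in red (edgeR adjusted p under 0.05) and the list median as a bar. The 9 genes hold 2 calls, the fasting and feeding list 2 and the periportal list 1.

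Gluconeogenesis is concentrated in hepatocytes near the portal vessels, and many of its genes follow the time of day. Of 10 periportal genes 1 was lower, Cyp2f2, a cytochrome P450, with 27.7 ± 11.3 CPM in DSSHA livers and 149.8 ± 51.8 CPM in DSS livers (log2 fold change -2.44 ± 0.38, edgeR adjusted p = 0.0096; list median -0.37). With the mitochondrial covariate Cyp2f2 stood at -2.49 and did not pass (edgeR adjusted p = 0.076). DESeq2 called 4 of these 10, against 3.11% of all genes. At an unadjusted edgeR p under 0.05 the count was also 4, against 11.7% of all genes. Beside Cyp2f2 these were Gls2 (-1.32), Sds (-1.40) and Ass1 (-0.79), singled out after their values were seen. They did not pass (edgeR adjusted p = 0.150, 0.153 and 0.171). Of the 10 log2 fold changes 7 were negative and 3 positive. None of 10 pericentral genes passed edgeR's adjusted threshold (median -0.04; 3 at an unadjusted p under 0.05; 1 by DESeq2), and of 14 tested clock genes 0 passed (median 0.11; 3 at an unadjusted edgeR p under 0.05; 1 by DESeq2). The hour of sampling is not given in the labels, and its part in the values of Pygl and Ppp1r3b was not tested.

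Markers of other liver cells moved with the groups in part. Of 7 Kupffer cell markers 1 was higher, the scavenger receptor gene Marco (156 ± 165 CPM in DSSHA livers and 8.99 ± 2.78 CPM in DSS livers; summed level 306 to 611 CPM in DSSHA livers and 177 to 280 CPM in DSS livers). Without Marco, a sum added after seeing the data, the other 6 came to 208 to 437 CPM in DSSHA livers and 169 to 270.3 CPM in DSS livers, and the groups overlapped. Of 4 tested neutrophil markers, out of 9 listed, 3 were higher, S100a8, S100a9 and Retnlg (summed level of the 9 at 29.6 to 61.0 CPM in DSSHA livers and 4.19 to 14.9 CPM in DSS livers). None of 7 endothelial, 7 stellate or 4 tested cholangiocyte markers passed edgeR's adjusted threshold, with 2, 0 and 0 at an unadjusted p under 0.05. The 8 lymphocyte markers together reached at most 4.42 CPM in DSSHA livers and 4.28 CPM in DSS livers, and none had enough counts to be tested. Marco, S100a8, S100a9 and Retnlg were singled out after their values were seen. The part of these other liver cells in the values of Pygl and Ppp1r3b was not tested.

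For Pygl, Ppp1r3b, G6pc and Pck1 the named protein-coding genes with the most similar profile were looked up as those with the smallest root mean square difference of centred log2 CPM over the 8 libraries, among 10656 genes. For Pygl they were Ttc39c, Rbl2 and Cdc42bpa, at differences of 0.18, 0.19 and 0.20 where the median gene was at 0.78. For Ppp1r3b they were Tsku, Dlgap1 and Ltbp4 (0.34, 0.39 and 0.41, median gene 1.32), and for G6pc they were Ces2e, Arsa and Dsc2 (0.25, 0.30 and 0.35, median gene 1.12). For Pck1 they were Abat, Dcaf11 and Errfi1 (0.10, 0.12 and 0.12, median gene 0.56). Of these 12, Ttc39c and Tsku passed the test themselves, with log2 fold changes of -1.14 (edgeR adjusted p = 0.014) and -2.55 (0.018). Over all 11729 genes tested 1.26% passed. The 12 were picked by likeness over the same 8 libraries as the test, so a shared group difference was largely set by the choice.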

How the data were processed

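Liver mRNA libraries, 4 DSSHA and 4 DSS, were grouped by their labels. The authors' deposited table holds raw counts per gene, FPKM, group means on a normalized signal scale, a log2 fold change and p-values of their own comparison, per the file headers. The submitters' processing notes name GRCm38 and mm10, and the sources used here name no aligner, counter, strand setting or test. The deposited log2 fold changes of the genes described match those of the DESeq2 fit made here. Genes overlapping Pygl and Ppp1r3b had 4 and 5 counts in all.

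Counts of 54532 genes were filtered with filterByExpr (11729 left), TMM-normalized and tested with edgeR 4.0.16 (robust quasi-likelihood F test, R 4.3.3), with Benjamini-Hochberg adjustment over all genes tested and a threshold of 0.05. Fold changes are DSSHA over DSS, CPM are TMM-scaled, log2 CPM used a prior count of 2, and the test was tried on simulated data. Total counts per library were 12502300 to 16967839. The alternatives comprised DESeq2 1.42.0, limma-voom (limma 3.58.1), normalization by RLE or upper quartile, other filters (none, 1 CPM in 4 samples), a non-robust fit, a threshold of 0.01, limma on log2(FPKM + 1) and log2(FPKM + 0.1), leaving out mitochondrial genes, their share as a covariate, and leaving out each library. The genes, lists and alternatives were chosen with earlier results of these data known. Text names all 9 genes, list members past the threshold (up to 4 with the smallest p), a fixed set of regulators and enzymes (some not reported here), and the 3 most similar genes of Pygl, Ppp1r3b, G6pc and Pck1.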

Additional observations from a re-analysis of the deposited data

Results flagged for a closer look

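Of 56 groups of 4 values examined, 3 had a single library far from the other 3 relative to the range of the group, and chance alone flags about 1 group in 20. In DSS livers, Gys2 had 74.6 CPM in library 15, against 45.3 to 47.1 CPM in the other 3. The remaining 2 were both in library DSSHA 35. Its log2 FPKM ratio of Ppp1r3c to Ppp1r3b was -3.03, against 1.34 to 1.56 in the other 3 DSSHA libraries. Cyp2f2 had 10.8 CPM there, against 31.4 to 34.5 CPM in the other 3.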

How the results depend on the processing

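Depth left 251 to 1015 counts of Pygl and 102 to 728 of Ppp1r3b per library. No paired analysis was possible because the groups share no library numbers. Pygl, Ppp1r3b, G6pc, Slc37a4, Pck1 and Ppp1r3c stayed negative under all 20 settings. Pygl passed in 12 of 20, Ppp1r3b in 8 and G6pc in 3 (DESeq2, no filter, and without DSSHA 71).

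Of the 9 genes 2 passed as reported, 1 with upper-quartile normalization, limma-voom, the filter of 1 CPM in 4 samples or log2(FPKM + 0.1), 0 at an adjusted p under 0.01 or with the mitochondrial covariate, 3 with DESeq2 or no filter, and 0 to 2 when a library was left out. Over all genes 148 passed as reported, 441 with DESeq2, 320 with no filter, 61 at 0.01, 55 with the mitochondrial covariate, and 58 to 308 when a library was left out, with 308 without DSSHA 35, 83 without DSSHA 45, 58 without DSS 48, 74 without DSS 49 and 77 without DSS 50. Signs turned for Fbp1 (-0.11 with the covariate, -0.074 without DSSHA 71, and -0.07 to 0.47 over libraries left out), Gbe1 (-0.18, and -0.21 to 0.39) and Gys2 (-0.45 to 0.17 with a library left out). List genes were followed across the settings only for a part of those named in the text. Among these, signs also turned for Igfbp1 (as given above), Pcx (-0.04 with the covariate, -0.03 without DSSHA 45), Ppargc1a (-0.43 with the covariate, -0.05 without DSSHA 71) and Ugp2 (0.03 without DSSHA 65). The cause was not tested.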
